A study of Sus scrofa with 2 samples.

Results

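Lymphatic endothelial cells were selected from single-cell RNA profiles of pig endometrium by their own transcripts, and gave 326 barcodes of 25138 in all. A barcode is the tag of one droplet and stands for a cell, and a UMI (unique molecular identifier) is one counted RNA molecule. A barcode was chosen when at least 2 of the genes MMRN1, PROX1, LYVE1, CCL21 and PDPN had a UMI, MMRN1 or PROX1 among them, and when PTPRC (the pan-leukocyte surface protein CD45) and PDGFRA (a fibroblast receptor) were at 0. The selection kept 231 of 10045 barcodes in library 1 (endometrium1) and 95 of 15093 in library 2 (endometrium2). Because these 5 genes chose the members, their levels and every contrast of members with other barcodes are given as a description with no test.

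The study profiled endometrium of 2 Yorkshire sows, each 3 years old, after artificial insemination, 1 at 7 days of gestation (called pre-receptive, Pre-ER) and 1 at 13 days (called receptive, ER). Each library came from the tissue of 1 sow, so stage, animal, dissociation and sequencing run cannot be told apart, and no difference between the libraries has a replicate check. The sample labels number the libraries without giving their stage; the tables were deposited under the name Pre-ER for library 1 and ER for library 2, and the libraries are called here by their numbers. The tissue was digested with collagenase and a protease, red cells were lysed, and cells were profiled with the 10x Genomics 3' droplet assay. Intervals cover counting error only.

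Lymphatic endothelium lines the blind-ended capillaries and the valved collecting vessels that drain fluid, lipid and leukocytes from a tissue. The transcription factor PROX1 sets and keeps its identity, VEGFC acts on it through its receptor, and it secretes the chemokine CCL21, which draws dendritic cells and T cells carrying the receptor CCR7. Capillary lymphatics are rich in the hyaluronan receptor LYVE1 and collecting vessels carry little of it. In the uterus, lymphatic vessels run through the endometrium and the muscle layer. Of 42 genes listed for lymphatic identity beside the rule, 23 could be matched by symbol; FLT4 (the VEGFC receptor), RELN, FOXC2 and STAB2 were not analysed here.

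The members were sequenced to a depth close to that of other barcodes of their library. The median was 3388 UMIs in library 1 and 4595 in library 2, against 3431 and 4335 over all barcodes, with ranges of 551 to 85672 and 912 to 27469. The doublet caller Scrublet marked 31 members in library 1 (13.4%, against 11.02% of all barcodes) and 22 in library 2 (23.2% against 15.8%). Unsupervised clustering, run without the called doublets, placed 182 and 66 members in a single cluster, where they made up 86.3% and 88.0% of the barcodes; the remaining members that were not called doublets, 18 and 7, were spread over 9 and 5 clusters. A few members carried much RNA of another cell type. The 9 members of library 1 and 7 of library 2 with at least 15000 UMIs held 24.6% and 24.4% of all members' UMIs. In library 1, 1 barcode held 76.2% of the members' JCHAIN (an immunoglobulin-joining chain of plasma cells) and 1 held 46.4% of their AQP3 (an epithelial water channel). ACTA2, TAGLN and COL1A1, genes of muscle and fibroblasts, were all at 0 in only 34 and 40 members. Levels are therefore given also for members inside the cluster. The libraries shared 48 barcode sequences, of which 1 was a member in library 2 and none in library 1.

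All 5 genes of the rule were found in most members of both libraries. MMRN1 (ENSSSCG00025070809 in the files), the secreted glycoprotein multimerin 1, stood at 1789 CPM (95% interval 1712 to 1869) in library 1 and 1506 CPM (95% interval 1410.4 to 1607) in library 2; CPM scale the summed UMIs of a class to a common total. It had a UMI in 208 and 90 members, with a median of 7 and 8 UMIs per barcode and interquartile ranges of 2 to 13 and 3 to 14. PROX1 (ENSSSCG00025072634) was at 713 CPM (95% interval 664 to 764) and 486 CPM (95% interval 432 to 544), in 192 and 81 members. CCL21 (ENSSSCG00025051683) was at 1012 CPM (95% interval 954 to 1073) and 1114 CPM (95% interval 1032 to 1201), in 180 and 83 members. LYVE1 (ENSSSCG00025022399) was at 988 CPM (95% interval 931 to 1048) and 774 CPM (95% interval 706 to 848), in 155 and 73 members. PDPN, the membrane glycoprotein podoplanin (ENSSSCG00025023894), was at 524 CPM (95% interval 483 to 568) and 458 CPM (95% interval 406 to 515), in 185 and 80 members. MMRN1 was thus the highest of the 5 in both libraries, and no gene of the rule owed more than 6.63% of its UMIs to 1 barcode.

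Most members carried more of these genes than the rule asked for. In library 1, 31, 43, 56 and 101 members had 2, 3, 4 and 5 of the genes, and in library 2, 10, 6, 26 and 53. At the edge of the rule, barcodes with exactly 2 genes had a UMI of CLDN11, a claudin that the rule did not use, in 16 of 31 (51.6%) and 3 of 10 (30.0%). Just outside it lay 97 and 52 barcodes with MMRN1 or PROX1 as their only gene of the 5, and CLDN11 was found in 14 of 97 (14.4%) and 2 of 52 (3.85%). With 3 or more genes, the share was 154 of 200 (77.0%) and 49 of 85 (57.6%). CLDN11 was also found in stromal barcodes, in 77 of 1986 (3.88%) in library 1 and 277 of 1963 (14.1%) in library 2. Another 47 and 29 barcodes met the marker part and were left out for PTPRC or PDGFRA. Outside endothelium MMRN1, PROX1 and LYVE1 were each found in at most 1.64% of the barcodes of any class. Members were taken out of every other class first and barcodes in several of the other gates were left out, which keeps these shares low. MMRN1 had a UMI in 1 of 61 and 3 of 1258 epithelial barcodes and PROX1 in 0 of 61 and 2 of 1258, at median depths of 4647 and 5189.5 UMIs, and 0 of 61 allows a share of up to 4.92%. PDPN was found more often, in 128 of 1986 (6.45%) and 102 of 1963 (5.20%) stromal barcodes. CCL21 had a UMI in 89 of 1963 stromal (4.53%) and 51 of 1258 epithelial barcodes (4.05%) of library 2.

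**Figure D1:**
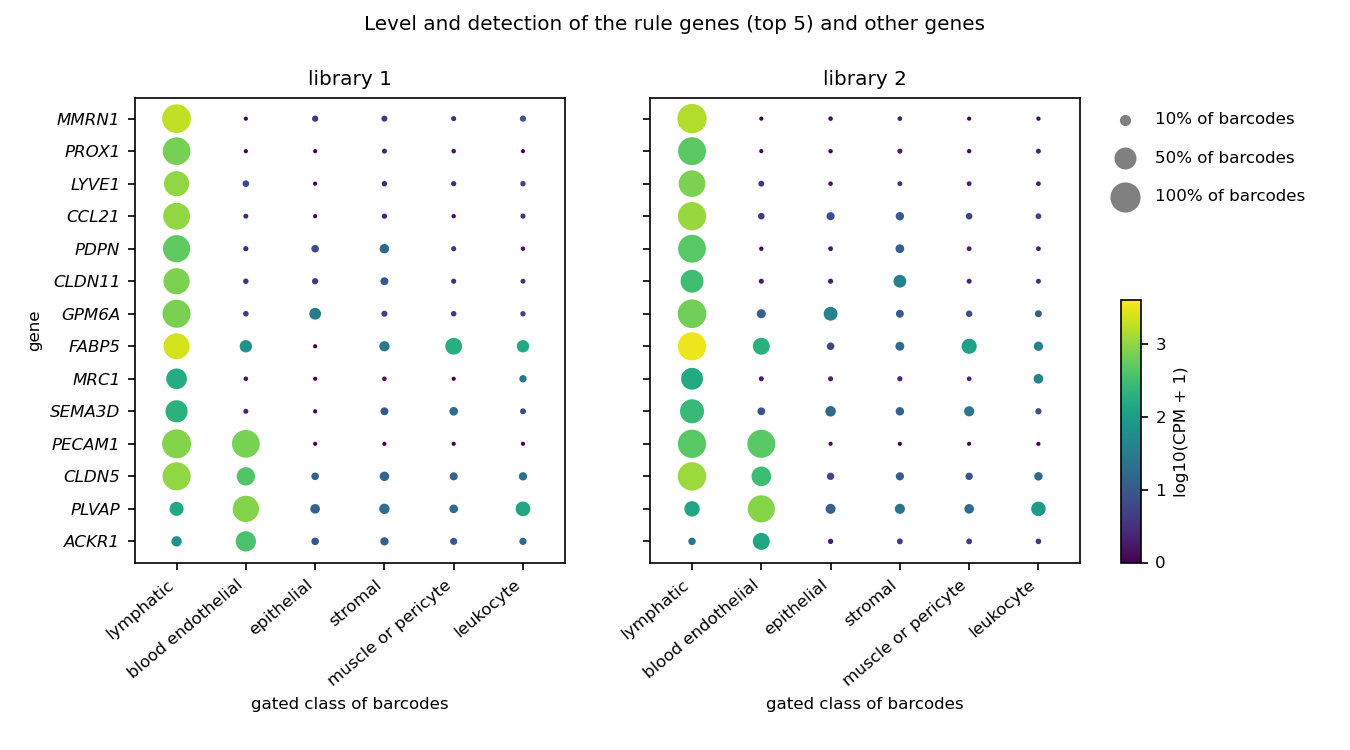
Dot plot of the 5 rule genes and 9 other genes (rows) in 6 gated classes of barcodes (columns), library 1 left and library 2 right; dot area gives the percent of barcodes with a UMI and colour gives log10(CPM + 1) of the class sum. The rule genes, CLDN11 and GPM6A are high in the lymphatic column of both libraries, and PLVAP and ACKR1 are high in blood endothelium; MMRN1 and PROX1 are at 0 in blood endothelium because its gate requires it.

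The closest class for comparison was blood endothelium, gated as barcodes with at least 2 of 9 endothelial genes and no MMRN1, PROX1, PTPRC or PDGFRA UMI (2820 barcodes in library 1 and 3101 in library 2). PECAM1, CDH5, CLDN5, KDR and FLT1 were among those 9 genes. Their levels in blood endothelium are therefore shaped by the gate, and their contrasts are descriptions only. General endothelial genes were found in both classes. PECAM1 (the junction protein CD31) was at 859.9 and 456 CPM in lymphatic and 738 and 458 CPM in blood endothelial barcodes of libraries 1 and 2. RAMP2, the partner of the adrenomedullin receptor, was at 2225 and 1524 against 2036 and 1261 CPM. CLDN5, the main endothelial claudin, was higher in lymphatic barcodes, at 995 and 1145 against 421 and 295 CPM, and CDH5 (VE-cadherin) was lower, at 277 and 138 against 429.5 and 190.5 CPM. None of the 16 pan-endothelial genes tested was 4-fold apart in both libraries, and their median log2 ratio was 0.06 and 0.09. The shares over all genes were 1.5% at least 4-fold higher and 0.557% at least 4-fold lower.

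Of 8258 genes with at least 10 UMIs in each library, 124 (1.5%) were at least 4-fold higher in lymphatic than in blood endothelial barcodes of both libraries and 46 (0.557%) at least 4-fold lower. The median log2 ratio over all these genes was 0.00 in library 1 and 0.06 in library 2. With only members inside the cluster, the lower genes numbered 102, of which 29 were among the 46. The rule picked the lymphatic side and the gate the blood side, so the counts describe the classes.

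Outside the rule, the highest ratio belonged to CLDN11, a claudin also known from myelin and from the testis barrier. It was at 765 CPM (95% interval 715 to 818) in library 1 and 312 CPM (95% interval 269 to 359) in library 2, against 2.30 and 0.828 CPM in blood endothelium, which is 332-fold and 376-fold higher. It had a UMI in 170 of 231 and 52 of 95 members, against 0.887% and 0.58% of blood endothelial barcodes. GPM6A, a neuronal membrane glycoprotein, was at 762 and 663 CPM against 3.45 and 11.2 CPM, and was found in 198 and 85 members, more than PROX1. MRC1, the mannose receptor CD206 of macrophages and lymphatics, was at 164 and 154 against 0.537 and 0.92 CPM; the members had no PTPRC UMI by the rule. TNFAIP8L3, a phosphoinositide transfer protein, was at 186 and 249 against 1.23 and 0.782 CPM.

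Single genes of lipid handling stood far above and far below blood endothelium. FABP5, a fatty acid binding protein, had the most UMIs of the 20 leading genes in both libraries, with 2279 CPM (95% interval 2192 to 2369) and 3273 CPM (95% interval 3131 to 3420.2) against 63.0 and 193 CPM in blood endothelium, or 36.2-fold and 16.9-fold higher. It was found in 167 and 83 members and 0 of 61 and 41 of 1258 epithelial barcodes. Among muscle or pericyte barcodes FABP5 was found in 603 of 2218 (27.2%) and 195 of 924 (21.1%), at 178 and 113 CPM. In blood endothelium it was found in 12.9% and 27.8% of barcodes. ANGPTL4, an inhibitor of lipoprotein lipase, was at 109 and 190.3 against 17.8 and 32.1 CPM. SCARB1, the HDL receptor, headed the genes with the lowest ratios, at 56.7 and 49.2 against 367 and 311 CPM. Of 15 lipid genes tested, 3 were at least 4-fold higher and 1 at least 4-fold lower in both libraries, and the list's median was 0.31 and -0.15.

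SEMA3D, a secreted semaphorin, was at 200.1 and 264 against 1.46 and 7.13 CPM. SEMA3A, a semaphorin needed for lymphatic valves, was at 60.2 and 105 CPM, with only 1 and 13 UMIs in all blood endothelial barcodes. Its log2 ratio was 8.03 (7.09 to 14.94) in library 1 (the point value set with a floor of 3 UMIs) and 7.46 (6.58 to 8.44) in library 2. In stromal barcodes SEMA3A had a UMI in 18 of 1986 (0.906%) in library 1 and 291 of 1963 (14.8%) in library 2. GJA4 (connexin 37), a gap junction gene, was at 534 and 317 against 70.0 and 41.8 CPM. NEO1, the receptor neogenin, was at 152 and 459 against 11.05 and 17.8 CPM. The valve and collecting list had 5 of 16 genes at least 4-fold higher and none lower in both libraries, with medians of 0.39 and 0.77; GJA4, CLDN11, SEMA3A and NEO1 were among them.

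An anticoagulant pair of genes was high. TFPI, the tissue factor pathway inhibitor, was at 172 and 161 CPM in lymphatic and 4.14 and 0.552 CPM in blood endothelial barcodes, or 41.5-fold and 291-fold higher. PROCR, the endothelial protein C receptor, was at 70.8 and 34.5 against 15.0 and 7.41 CPM. These were the only 2 of 13 coagulation and fibrinolysis genes past 4-fold in both libraries. PLAT, tissue plasminogen activator, was at 108 and 121 against 240.3 and 268 CPM.

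Among 33 genes of leukocyte trafficking, 4 were at least 4-fold higher and 3 at least 4-fold lower in both libraries, with a median of -0.55 and -0.71. The higher genes were CCL21, MRC1, ACKR2 and IL7. ACKR2, a decoy receptor that clears inflammatory chemokines, was at 62.9 and 45.9 against 0.23 and 1.10 CPM. IL7, a survival cytokine of T cells, was at 23.0 and 128 against 0.921 and 1.01 CPM. ACKR1, the chemokine carrier of venules, went the other way, at 62.9 and 23.0 against 367 and 135 CPM, and 1 barcode held 85.7% of its lymphatic UMIs in library 2. The neutrophil chemokine CXCL2 was at 219 and 507 against 705 and 2140.2 CPM.

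Genes of blood capillaries were low in the members. PLVAP, which forms the diaphragms of fenestrated vessels, was at 149.7 and 136 against 850.1 and 887 CPM, with 41 of 231 and 21 of 95 members positive. FLT1, a VEGF receptor, was at 43.4 and 82.0 against 254 and 495 CPM, whereas KDR, the main VEGF receptor of blood vessels, was at 219 and 91.9 against 265 and 147 CPM. The other genes with the lowest ratios were CCL14, ENPP2 (autotaxin), FAM13C, ADGRL4, AQP1 (a water channel) and JAM2, with log2 ratios between -3.29 and -2.37. Of 21 blood endothelial markers tested, 8 were at least 4-fold lower and none higher in both libraries. FLT1 and KDR were among the genes that chose the blood endothelial barcodes, so these contrasts draw partly on the gate itself. Among members inside the cluster PLVAP stood lower, at 64.7 and 98.5 CPM, and FLT1 at 19.4 and 37.4 CPM.

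VEGFC, the growth factor that drives lymphatic growth, was higher in blood endothelium. It was at 35.4 and 29.5 CPM in lymphatic and 169 and 127 CPM in blood endothelial barcodes, and was the only 1 of 30 genes of the list past 4-fold in both libraries. NRP1, a VEGF co-receptor, was at 119 and 47.6 against 429 and 225 CPM. NRP2, the co-receptor that binds VEGFC, was at 159 and 121 against 54.7 and 48.4 CPM (this gene was named after its values were seen). SMAD1, which carries BMP signals, was at 297 and 463 against 87.1 and 114 CPM. TEK, the angiopoietin receptor, was at 76.2 and 50.9 against 296 and 172 CPM.

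**Figure D2:**
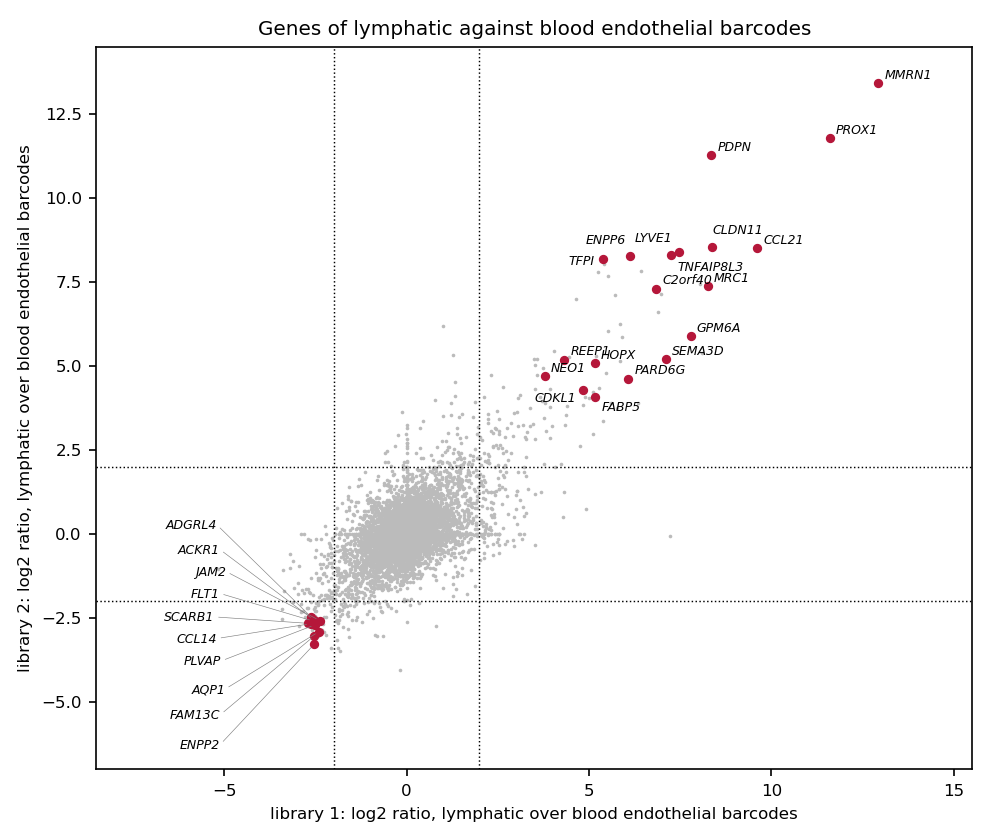
Each point is 1 of the 8258 genes tested; the axes give the log2 ratio of lymphatic over blood endothelial barcodes in library 1 (x) and library 2 (y), and dotted lines mark 4-fold. The labelled leading genes lie at upper right, from NEO1 to MMRN1, and the 10 lowest at lower left; MMRN1 and PROX1 lie far out because the blood gate holds them at 0.

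Interferon and stress genes were lower in lymphatic barcodes as lists, with few genes past 4-fold. Over all genes tested, 1.5% were at least 4-fold higher and 0.557% at least 4-fold lower in both libraries. None of 20 interferon response genes tested was higher than in blood endothelium in both libraries. Their median was -0.83 and -1.10, and MX2, an antiviral GTPase, was the 1 gene past 4-fold, at 9.74 and 88.6 against 71.9 and 442 CPM. The 31 immediate early and stress genes had a median of -0.91 and -0.39 with none past 4-fold; FOS was at 876 and 2707 against 2764 and 4684 CPM. Of 10 steroid receptor genes none was past 4-fold, a list too short to be set apart from the shares over all genes. ESR1, the estrogen receptor, was at 87.7 and 185 against 58.8 and 173 CPM, and at 34.0 and 67.9 CPM among members inside the cluster. PGR, the progesterone receptor, was at 21.3 and 26.3 CPM with all members and 6.47 and 3.40 CPM inside the cluster. NR3C2, the mineralocorticoid receptor, was at 66.4 and 428 against 27.5 and 184 CPM, and NR2F2 (COUP-TFII), a partner of PROX1, at 382 and 231 against 195 and 74.7 CPM.

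RNA of other cell types was measurable in the members. The summed level of 8 epithelial marker genes was 506 CPM in library 1 and 8865 CPM in library 2, against 127 and 9329.9 CPM in blood endothelium, and 419 and 1674 CPM inside the cluster; the list holds ACP5, which is described further on. For 11 muscle and pericyte genes the sums were 1360.2 and 402 CPM, and 605 and 132 inside it. For 10 stromal genes they were 4175 and 1149 CPM, and 1963 and 574 inside it. For 18 leukocyte genes they were 1268 and 438 CPM, and 186 and 377 inside it, with PTPRC at 0 by the rule. Their part in the results was not tested.

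The members varied among themselves along LYVE1. The division and the genes named for it were chosen after their values were seen, and it was made among members inside the cluster with at least 1000 UMIs. LYVE1 had a UMI in 120 of 171 barcodes (70.2%) in library 1 and 53 of 65 (81.5%) in library 2. The median depths were 3074.5 UMIs in LYVE1-positive and 2996 in LYVE1-negative barcodes of library 1, and 3808 and 3827 in library 2. Of 2215 genes with at least 20 UMIs in each library, 28 (1.26%) were at least 2-fold higher and 45 (2.03%) at least 2-fold lower in LYVE1-negative barcodes of both libraries.

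FOXP2, CLDN11, CLDN5, C2orf40 and NEO1 were past 2-fold on the LYVE1-negative side. FOXP2, a forkhead transcription factor, had a UMI in 20 of 51 LYVE1-negative and 6 of 120 LYVE1-positive members of library 1 and in 10 of 12 and 14 of 53 of library 2. Its log2 ratio of negative over positive was 3.54 (2.42 to 4.85) in library 1 and 3.49 (2.62 to 4.43) in library 2. CLDN11 was found in 50 of 51 against 86 of 120 and 10 of 12 against 29 of 53 members, at 2222 against 796 and 1452 against 265 CPM. CLDN5 was at 2477 against 1032 and 2923 against 1285 CPM. C2orf40, a secreted peptide precursor, was found in 27 of 51 against 10 of 120 members of library 1 and in 4 of 12 against 3 of 53 of library 2. Its log2 ratios were 1.85 and 4.21, and 1 barcode held 82.9% of the LYVE1-positive UMIs in library 1. In library 2, 1 barcode held 42.1% of the LYVE1-negative and 1 held 69.4% of the LYVE1-positive UMIs. With barcodes weighted equally the ratios were 3.49 and 4.85. NEO1 was at 424 against 122 and 1643 against 489 CPM. Of 9 valve and collecting vessel genes tested, CLDN11 and NEO1 were past 2-fold on this side and 2 on the LYVE1-positive side. GJA1, a gap junction gene of that list, was lower in LYVE1-negative members. It was at 153 against 374 CPM in library 1 and 19.1 against 187 CPM in library 2, where the LYVE1-negative value was 1 UMI.

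Several genes with large ratios on the LYVE1-negative side rested on few barcodes, MGP in both libraries and S100A4, ADM and HOPX in library 2. In library 1, S100A4 had a UMI in 28 and HOPX in 36 of 51 LYVE1-negative members. MGP, an inhibitor of calcification, had log2 ratios of 3.47 and 3.04, but a UMI in only 8 of 51 and 4 of 12 LYVE1-negative members, with 49.1% and 54.5% of those UMIs in 1 barcode. Among the gated classes MGP was highest in muscle or pericyte barcodes, at 1333 and 1527 CPM in libraries 1 and 2. S100A4 had log2 ratios of 2.24 and 5.32, and 1 barcode held 92.3% of its LYVE1-negative UMIs in library 2. ADM (adrenomedullin, a peptide that stabilises lymphatic junctions) and HOPX had 1.96 and 2.07, and 1.66 and 2.26, with 50% and 54.7% of the LYVE1-negative UMIs of library 2 in 1 barcode. The LYVE1-negative side of library 2 holds 12 barcodes in all.

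MMRN1, CCL21, MRC1, DAB2 and STON2 were past 2-fold on the LYVE1-positive side. The rule shapes the contrast of its own genes: a LYVE1-negative member needs 2 of the other 4 genes, and a LYVE1-positive one needs only MMRN1 or PROX1 beside LYVE1. MMRN1 was at 3464 CPM in LYVE1-positive against 792 CPM in LYVE1-negative members of library 1 and at 2828 against 688 CPM in library 2. CCL21 was at 1962 against 724 and 2069 against 420.3 CPM. MRC1 was at 312 against 102 and 328 against 76.4 CPM. DAB2, an endocytic adaptor, was at 475 against 67.9 and 232 against 38.2 CPM, and STON2, another endocytic adaptor, at 115 against 22.6 and 676 against 76.4 CPM. With UMIs thinned to 1000 per barcode, the log2 ratios in library 2 were -0.02 for MRC1, -0.30 for DAB2 and -0.45 for STON2. CCL21 was at -0.87 in library 1 and -1.27 in library 2 when thinned. CAVIN2 (a caveolar coat protein), CLEC3B, TSPAN18, NTN1 (netrin 1), NPR1 and EDNRB lay on the same side, with log2 ratios of negative over positive between -2.56 and -1.54. When thinned, CAVIN2 and NPR1 stayed past 2-fold in both libraries and TSPAN18 (-1.43 and -0.85) only in library 1. CLEC3B (-0.92 and -0.74), NTN1 (-0.93 and -0.25) and EDNRB (-0.90 and -0.45) were past it in neither. NTN1 had 1 LYVE1-negative UMI in library 1.

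PROX1 and PDPN were not past 2-fold in either library. PROX1 was at 1600.3 CPM in LYVE1-negative and 953 CPM in LYVE1-positive members of library 1 and at 917 and 755 CPM in library 2, log2 ratios of 0.75 (0.52 to 0.97) and 0.28 (-0.21 to 0.75). PDPN had log2 ratios of 0.08 (-0.21 to 0.36) and -0.20 (-0.76 to 0.32), and PECAM1 of 0.68 (0.46 to 0.90) and 0.05 (-0.53 to 0.60). SEMA3D had 0.23 (-0.23 to 0.69) and -0.33 (-1.11 to 0.38). Across barcodes, LYVE1 as a share of UMIs had a Spearman correlation of -0.42 with CLDN11, which the rule did not use, over 171 barcodes of library 1, and of -0.53 over 65 of library 2; barcodes share a library and a depth, and these are descriptions. With all 220 and 94 members of at least 1000 UMIs, 21 genes were higher and 78 lower, of which 5 and 27 were the same genes; FOXP2 kept log2 ratios of 2.52 and 2.24, MGP 1.81 and 2.52, and MMRN1 -2.58 and -2.58, and CLDN11 0.61 and 1.56. CLDN5 had 0.37 and 0.61 with all members and 0.93 and 0.93 with thinned barcodes, so it was not past 2-fold in either. NEO1 had 1.07 and 0.91 with all members and 0.98 in library 2 when thinned, and CLDN11 0.95 and 1.30 thinned. C2orf40 had 0.93 and 3.61 with all members, so it was not past 2-fold in library 1. Few markers of other cell types had enough UMIs to be tested: 1 of epithelium, 4 of stroma, 1 of leukocytes and none of muscle. None of those tested was past 2-fold in both libraries. Over all genes tested, 1.26% were higher and 2.03% lower, so a count of none among so few genes says little. TAGLN, a smooth muscle gene, was at 418 against 192 and 76.4 against 45.6 CPM. The part of other cell types' RNA in this contrast was not tested.

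**Figure D3:**
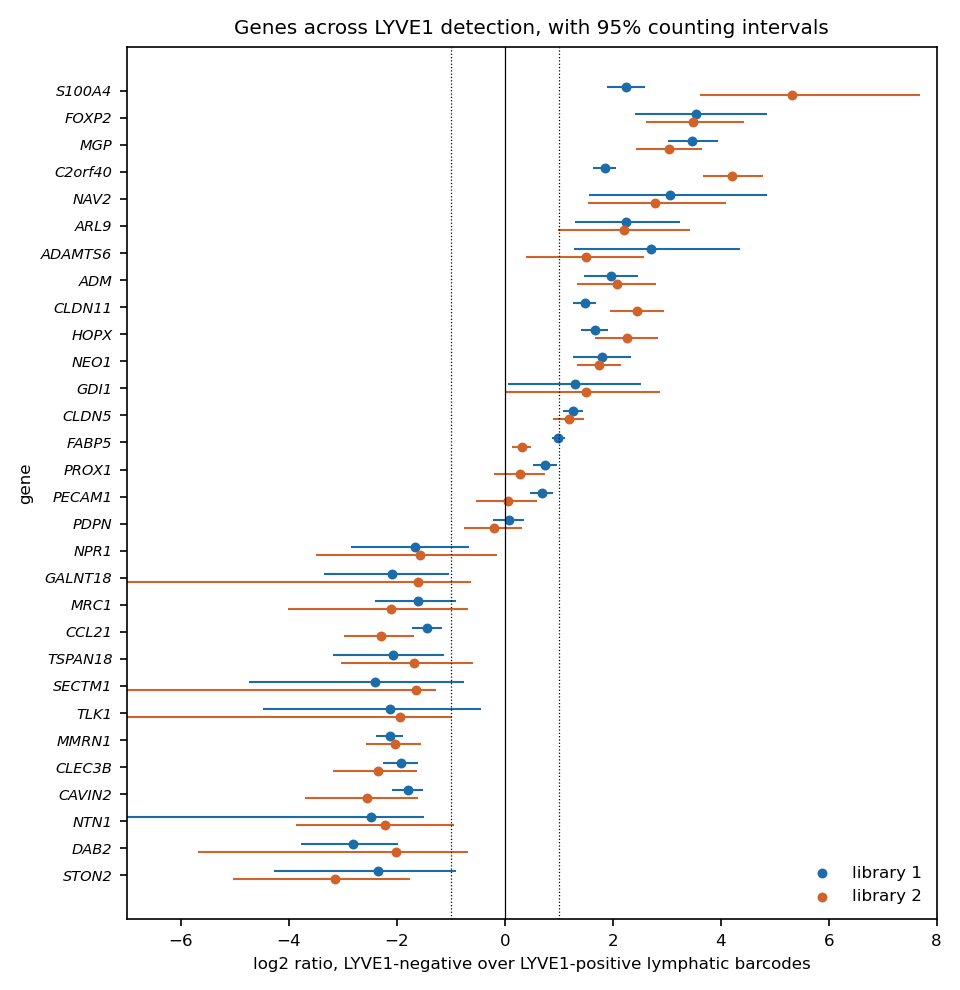
Log2 ratio of LYVE1-negative over LYVE1-positive members inside the lymphatic cluster (x) for 30 genes (rows), library 1 in blue and library 2 in orange, with 95% counting intervals; bars that run past the axis are cut there and dotted lines mark 2-fold. S100A4, FOXP2 and MGP lie furthest to the right, MMRN1 and CCL21 to the left, and PROX1, PDPN and PECAM1 within 2-fold.

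Lymphatic barcodes were a smaller part of library 2. They made up 2.30% of all barcodes in library 1 (95% interval 2.02 to 2.61%) and 0.629% in library 2 (0.510 to 0.769%). Among endothelial barcodes, lymphatic and blood together, they were 231 of 3051 (7.57%, 6.66 to 8.57%) and 95 of 3196 (2.97%, 2.41 to 3.62%). The libraries also differed in the other classes, with 61 and 1258 epithelial and 2218 and 924 muscle or pericyte barcodes. With barcodes thinned to 1000 UMIs before the gate, the shares of all barcodes were 1.91% and 0.572%. With ACTA2, TAGLN and COL1A1 also required at 0, they were 0.338% (34 barcodes) and 0.265% (40 barcodes), so the libraries lay much closer. The median UMIs of members differed too, and the part of muscle and stromal RNA in the share was not tested.

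Between the libraries the genes of the rule differed by far less than 4-fold, but detection of these genes chose the members in both libraries. The log2 ratio of library 2 over library 1 was -0.25 (-0.36 to -0.13) for MMRN1, -0.55 (-0.75 to -0.36) for PROX1, -0.35 (-0.51 to -0.20) for LYVE1, 0.14 (0.00 to 0.28) for CCL21 and -0.20 (-0.41 to 0.01) for PDPN. The members' median gene stood at 0.09. GPM6A was at -0.20, MRC1 at -0.09, TFPI at -0.10 and SEMA3D at 0.40. CLDN11 was lower in library 2, -1.30 (-1.53 to -1.07), as was HOPX, -0.70 (-0.94 to -0.47), while NEO1 was higher, 1.59 (1.31 to 1.88). LYVE1-negative members were 29.8% of the cluster's members in library 1 and 18.5% in library 2.

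A minority of all genes tested differed by at least 4-fold. Of 7157 genes tested, 688 (9.61%) were at least 4-fold higher and 122 (1.7%) at least 4-fold lower in library 2. Blood endothelium of the same libraries had 625 and 120 of these genes past 4-fold, and 466 higher genes (67.7% of the lymphatic and 74.6% of the blood endothelial ones) and 45 lower genes (36.9% and 37.5%) were past 4-fold in both classes. With members inside the cluster only, 450 genes were higher and 66 lower. The classes come from the same libraries and are not independent of each other.

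Of the 12 genes with the highest ratios, 4 (LRMDA, AUTS2, MAGI2 and PDE4D) stood in the list of genes with very long introns. LRMDA was at 4.43 CPM in library 1 and 532 in library 2, AUTS2 at 6.20 and 576, MAGI2 at 4.43 and 248, and MAGI1, a junction scaffold, at 42.5 and 2258 CPM. Their log2 ratios were 6.91, 6.54, 5.81 and 5.73 in lymphatic and 6.20, 6.63, 6.79 and 4.49 in blood endothelial barcodes. Of 26 listed genes with very long introns, 20 were at least 4-fold higher and none lower, with a median of 2.76 against 2.73 in blood endothelium. KDM5B, a histone demethylase, was at 85.0 and 1716 CPM, PDE4D, a cAMP phosphodiesterase, at 17.7 and 425, and CHSY3, ATXN1, PRKCE and GAB2 had log2 ratios of 6.39, 4.91, 4.50 and 4.37. KLRF1, a receptor gene of natural killer cells, had 0 UMIs in library 1 and 112 in 49 members of library 2, at least 69.2-fold higher by a floor of 3 UMIs, and was at 356 CPM in blood endothelium of library 2.

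Ribosomal protein genes were lower in library 2. Of 62 ribosomal protein genes 12 were at least 4-fold lower and none higher, with a median of -1.30 (-1.28 in blood endothelium). They made up a median of 12.8% of a member's UMIs in library 1 (interquartile range 10.5 to 14.8%) and 6.44% in library 2 (4.92 to 7.30%). RPL22 was at 1699 and 254 CPM and RPS23 at 3301 and 661 CPM; the other ribosomal genes with the lowest ratios were RPL23A, RPL37A, RPL34, RPS21 and the joint entry RPL17-C18orf32, between -2.36 and -2.27. COX7B and UQCR10, subunits of the respiratory chain, were at 362 and 54.1 and at 214 and 39.4 CPM, and the splicing protein gene SNRPE at 286 and 47.6 CPM. IGFBP5, a binding protein of insulin-like growth factors, was at 1369 and 248 CPM, with a log2 ratio of -2.47 (-2.72 to -2.22) and -2.54 in blood endothelium. MZB1, a plasma cell gene, had 231 UMIs in 12 members of library 1, 46.3% of them in 1 barcode, and 0 in library 2; inside the cluster it was at 3.24 and 0 CPM.

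Immediate early and stress genes were higher in library 2. Of 30 tested, 26 lay above 0, 8 were at least 4-fold higher and none lower, with a median of 1.18 against 0.61 in blood endothelium. The difference was smaller inside the cluster. Summed over the 31 genes with a symbol, the list went from 8997 to 18191.5 CPM between libraries 1 and 2 when all members were counted. Counting only members inside the cluster, it went from 8747 to 13208 CPM. Blood endothelium, not limited to a cluster, went from 14603 to 22845 CPM. The part of members outside the cluster in the higher median was not tested. ATF3 was at 178 and 2163 CPM, FOS at 876 and 2707, CCN2 at 235 and 1199, and the chaperone gene HSPH1 at 72.6 and 412 CPM. The log2 ratio of HSPH1 was 2.50 (2.14 to 2.88) in lymphatic and 0.91 (0.83 to 0.99) in blood endothelial barcodes. Of 17 interferon genes 3 were at least 4-fold higher, with IRF1 at 57.6 and 381 CPM and a list median of 0.32. Against 9.61% of all genes, 1 of 9 steroid receptor genes was at least 4-fold higher, NR3C2, at 66.4 and 428 CPM, with 2.69 against 2.74 in blood endothelium. The chemokine CCL2 was at 11.5 and 169 CPM, 31.1% of it in 1 barcode of library 2, and IL7 at 23.0 and 128 CPM in 24 and 40 members.

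**Figure D4:**
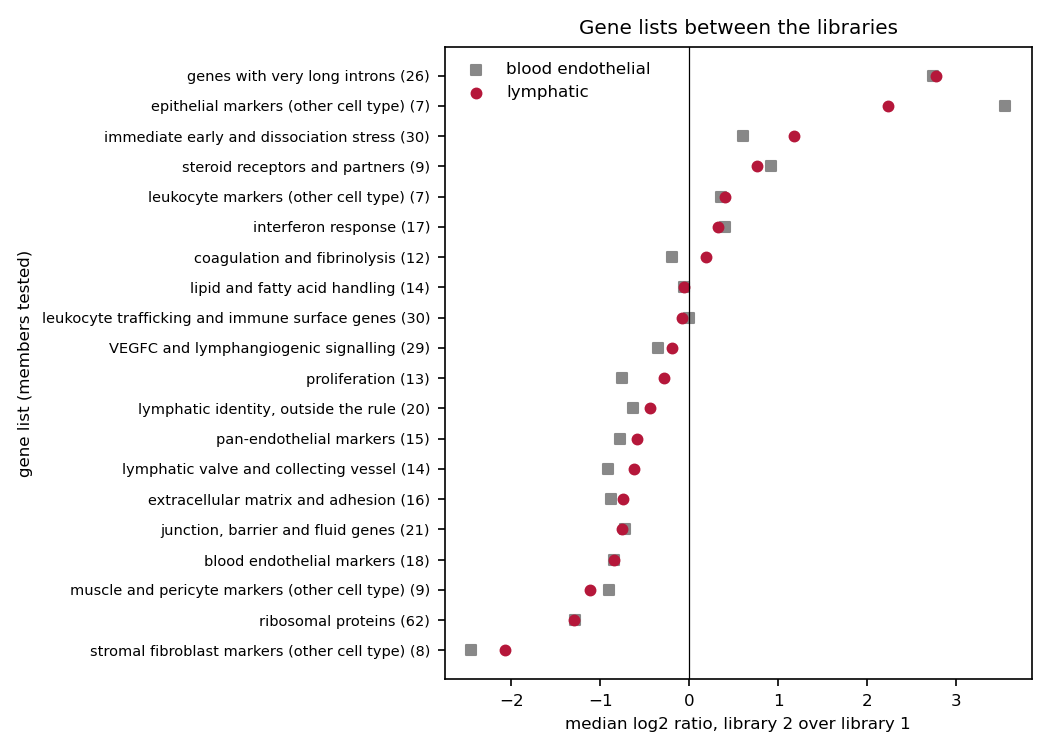
Median log2 ratio of library 2 over library 1 (x) for 20 gene lists (rows, members tested in brackets), lymphatic barcodes as red circles and blood endothelial barcodes as grey squares. In lymphatic barcodes genes with very long introns lie highest, followed by epithelial markers, and ribosomal and stromal genes lie lowest; in blood endothelium the epithelial markers lie highest.

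A few genes differed between the libraries in lymphatic barcodes by another amount than in blood endothelium; these were chosen after their values were seen, and the gap was not tested. CHST9, a sulfotransferase of sugar chains, was at 4.43 and 121 CPM, with a UMI in 4 of 231 and 26 of 95 members. In blood endothelium it was at 1.84 and 2.99 CPM. In stromal barcodes CHST9 was at 26.3 and 49.9 CPM, with a UMI in 220 of 1986 and 305 of 1963, so stroma stood above the members in library 1. Its log2 ratio was 4.78 (3.49 to 6.44) in lymphatic and 0.70 (0.00 to 1.44) in blood endothelial barcodes. For IL7 the log2 ratios were 2.47 (1.82 to 3.17) and 0.14 (-0.94 to 1.29). TMEM204, a claudin-like membrane protein that interacts with VEGF receptors, was at 120.4 and 308 CPM in lymphatic and 213 and 102 CPM in blood endothelial barcodes, so the class with the higher level differed between the libraries. MEIS2, a homeobox factor, had 3.11 (2.63 to 3.62) and 1.30 (1.19 to 1.41).

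On the other side, ACKR3, a scavenger receptor that takes up CXCL12 and adrenomedullin, was at 183 and 95.2 CPM in lymphatic and 41.0 and 91.0 CPM in blood endothelial barcodes. Between the libraries its log2 ratio was -0.95 (-1.39 to -0.52) in lymphatic and 1.15 (1.01 to 1.29) in blood endothelial barcodes. TIMP1, an inhibitor of matrix proteases, had ratios of -1.16 (-1.42 to -0.92) and 0.38 (0.32 to 0.45) in the same order. PRSS23, a secreted protease, was found in 222 and 94 members, at 2842 and 2025 CPM, and stood 16.8-fold and 3.96-fold above blood endothelium. SLC41A1, a magnesium transporter, was at 155 and 52.5 CPM.

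ACP5, which encodes uteroferrin, the iron-binding phosphatase that pig uterine glands secrete, was most frequent in lymphatic barcodes in library 1. It was at 240.0 CPM (95% interval 212 to 270.3) in 116 of 231 members, against 1.61 CPM in 0.567% of blood endothelial barcodes and 0 of 61 epithelial barcodes, which allows a share of up to 4.92%. Leukocyte barcodes came next, with 115 of 609 positive (18.9%), at 97.8 CPM. No barcode held more than 4.80% of its lymphatic UMIs, and inside the cluster it was at 380.2 CPM. In library 2 it had a UMI in 94 of 95 members, 97.4% of blood endothelial and 99.8% of epithelial barcodes, at 5826, 6100.0 and 16298 CPM. Inside the cluster the members of library 2 were at 1141 CPM. Blood endothelium was not limited to a cluster or cleared of called doublets, so its level is not a like value. Per barcode, ACP5 had a median of 5 UMIs in members of library 2 (interquartile range 3.5 to 8). In blood endothelial barcodes the median was 4 (3 to 8). The level was high in every class of that library.

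**Figure D5:**
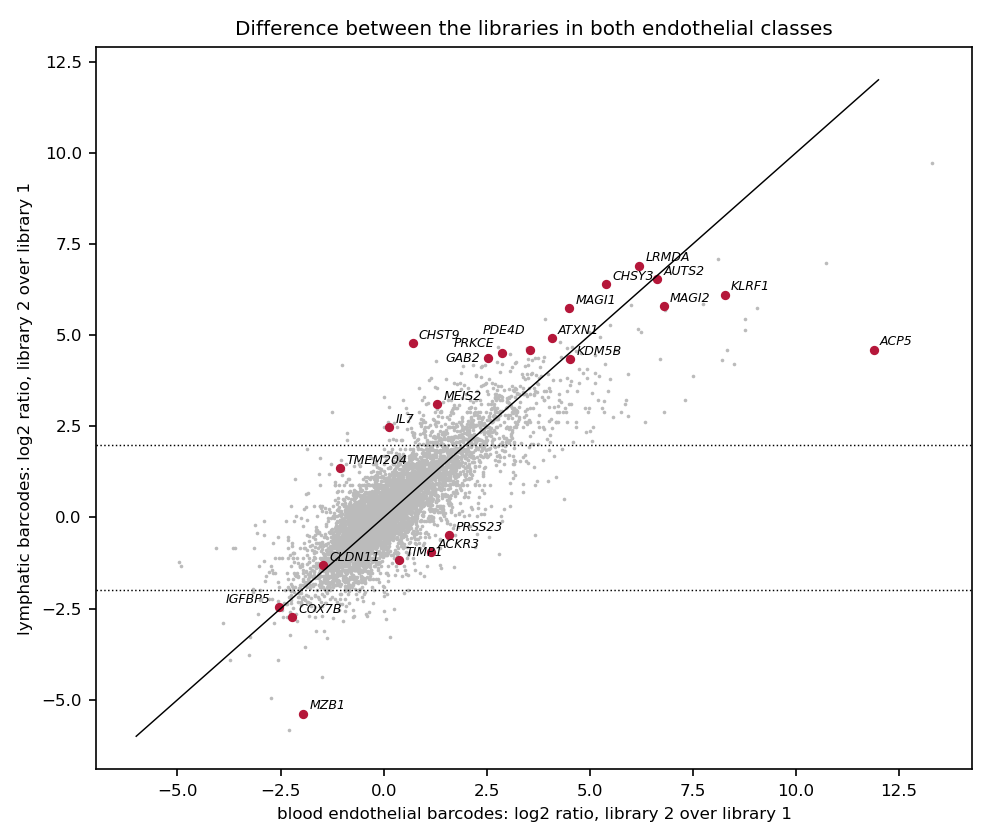
Each point is 1 of 7157 genes; the axes give the log2 ratio of library 2 over library 1 in blood endothelial (x) and lymphatic barcodes (y), the line marks equal ratios and dotted lines mark 4-fold in lymphatic barcodes. Most genes lie along the line, CHST9, IL7, MEIS2 and TMEM204 above it, and ACP5, ACKR3, TIMP1 and PRSS23 below it.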

How the data were processed

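Endometrium of 2 sows gave 1 droplet library each. The authors deposited raw UMI counts per gene and called barcode; Cell Ranger 6.1.0 wrote them per the file headers, while the submitters' processing notes name 2.1.1. The genome build is not given in the sources used here. Of 26881 feature rows, symbols were taken from the files and rows of a symbol summed to 10700 genes; rows without a symbol held 27.9% and 29.0% of UMIs. Within each class of a library the UMIs were added up; CPM has exact Poisson, ratios exact conditional binomial and shares exact Clopper-Pearson 95% intervals. The limit printed for a share of 0 is 3 counts of the total. In a ratio the lower side counts at least 3 UMIs. With 1 library per group nothing was tested: a gene is called past 4-fold (2-fold for LYVE1) among genes with at least 10 (20) UMIs. Doublets came from Scrublet and clusters from Leiden in scanpy 1.11.5 (2000 variable genes, 30 components, 15 neighbours, resolution 1); doublets stayed among the members. edgeR gave the TMM factors of an alternative. Calculations were tested on simulated data. Members and lists were chosen with earlier results of these data known. Named genes were the 20 highest and 10 lowest ratios to blood endothelium at 100 CPM or more, the 12 highest and lowest between libraries (also in at least 10 barcodes and at 50% or more of the highest class), and list members; others are named as chosen later. 1 gene that met the rule is not reported here.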

Additional observations from a re-analysis of the deposited data

Results flagged for a closer look

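Rows without a symbol were outside the comparisons of the report. Of 5768 such rows with at least 10 UMIs in each library, 98 (1.70%) were at least 4-fold higher in lymphatic than in blood endothelial barcodes of both libraries and 33 (0.572%) at least 4-fold lower. Among rows with at least 100 CPM in lymphatic barcodes of both libraries, the 2 with the highest ratios were ENSSSCG00025037846, at 359 and 722 CPM in lymphatic against 0.46 and 1.06 CPM in blood endothelial barcodes of libraries 1 and 2, and ENSSSCG00025050348, at 449 and 866 against 1.38 and 0.782 CPM. The files do not pair them with a name.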

How the results depend on the processing

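No paired analysis was possible because each group is 1 library of 1 sow, and for the same reason no library could be left out. With ACTA2, TAGLN and COL1A1 also required at 0, the share of lymphatic barcodes was 0.338% in library 1 and 0.265% in library 2, 21 genes were lower than in blood endothelium, and 220 and 65 were higher and lower in library 2; the cause was not tested. The share in library 1 was 1.99% with at least 3 rule genes and 1.91% with the rule on barcodes thinned to 1000 UMIs. Genes lower than in blood endothelium numbered 104 with all barcodes of the lymphatic cluster, 102 with members inside it and 102 with barcodes weighted equally. Between the libraries, 450 genes were higher and 66 lower with members inside the cluster, and 366 and 48 with UMIs thinned to 1000 per barcode. A minimum of 50 UMIs tests fewer genes and left 78 above blood endothelium, 346 and 74 higher and lower in library 2, and 10 and 23 across LYVE1. Across LYVE1, thinning left 5 and 4 of 351 genes tested, and all members with at least 1000 UMIs gave 78 lower genes. TMM scaling shifted log2 ratios between the libraries by -0.12. Of 1210 values of named gene ratios under alternatives, 352 moved beyond their counting interval and no ratio past 4-fold changed its direction. Of 262 values of list medians, 17 moved. The alternatives with members inside the cluster and those across LYVE1 were chosen after seeing the data.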
